A study of Mus musculus with 2 samples.

Results

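mmu-miR-145a-5p, mmu-miR-199a-3p and mmu-miR-199b-3p (written here without the mouse prefix) are miRNAs known from the vessel wall, and their array values are described here in brain RNA of control and cuprizone (CPZ)-fed mice. They are 3 of the 69 miRNAs that were selected on the difference between these same arrays, a fold change of at least 1.5, with 39 higher and 30 lower in CPZ. The deposited values carry probe set numbers without miRNA names. To locate each miRNA, probe sets were sought whose 2 log2 values matched the fold change and the volume (the square root of the product of those values) given for it in the study, within 0.0002. This found 24 of 36249 probe sets, 9 for miR-145a-5p and 15 for the miR-199a-3p and miR-199b-3p pair, found at the same probe sets. All probe sets located for a miRNA held identical values, and the match itself required agreement within its tolerance. The 3 miRNAs thus came down to 2 pairs of values. Any probe set for the same miRNA with other values would have been missed. Because the contrast between the arrays chose and located these miRNAs, their differences are given as descriptions, without a test.

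Both groups were male C57BL/6 mice, purchased at 7 weeks of age. The control mouse brain RNA came from animals on normal diet, and the CPZ RNA (labelled CPZ-5) from animals given 0.2% CPZ in the diet for 6 weeks. CPZ chelates copper and leads to the death of oligodendrocytes, the cells that make myelin. Each group had 1 array (Affymetrix GeneChip miRNA 4.0), so no value has a replicate error and no p-value was computed. The tissue is cerebellum in the labels and cerebrum in the study's methods, and whether the RNA on an array came from 1 mouse or several is not given in the sources used here.

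miR-145 is made with miR-143 from a shared host transcript, is abundant in vascular smooth muscle and pericytes, and favours the contractile state of smooth muscle, in part by repressing the transcription factor Klf4. The miR-199 family is abundant in mesenchymal cells such as fibroblasts and smooth muscle, and is made in part with miR-214 from the lncRNA Dnm3os. In brain, cells of the vessel wall and the meninges are known sources of such miRNAs. In bulk RNA, fewer cells of a type and less RNA per cell cannot be told apart.

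The sequences of the miR-199 miRNAs are shown first because they bear on what the shared values can distinguish. In RefSeq (GRCm38.p6), miR-199a-3p and miR-199b-3p are the same 22 bases, with the seed (bases 2 to 8) in capitals.
miR-199a-3p: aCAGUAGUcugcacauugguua
miR-199b-3p: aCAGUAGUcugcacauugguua
Left out of the comparison that follows were the miRNAs of the chromosome that carries the miR-145a gene. None of 1677 other mature mouse miRNAs compared had these bases at positions 2 to 8. The longest run any of them shared with miR-199a-3p was 8 bases. That length was reached by miR-147-5p, miR-3112-5p, miR-32-5p and miR-504-5p. The other arm of the hairpin, miR-199a-5p, shared a run of 4 bases.

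The mature sequence lies in 3 hairpins on different chromosomes, which are shown with miR-199-3p in capitals to mark what they share. Mir199a-1 is at chr9:21496495-21496564 (minus strand), Mir199a-2 at chr1:162217814-162217923 (plus strand) and Mir199b at chr2:32318460-32318569 (plus strand) of GRCm38.p6.
Mir199a-1: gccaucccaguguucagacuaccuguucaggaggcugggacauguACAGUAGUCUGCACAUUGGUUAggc
Mir199a-2: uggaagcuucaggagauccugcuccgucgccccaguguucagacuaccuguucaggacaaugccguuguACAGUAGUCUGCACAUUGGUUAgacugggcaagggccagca
Mir199b: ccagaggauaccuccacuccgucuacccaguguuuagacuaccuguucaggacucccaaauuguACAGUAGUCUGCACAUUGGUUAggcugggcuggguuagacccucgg
The capitals are at bases 46 to 67 of Mir199a-1, 70 to 91 of Mir199a-2 and 65 to 86 of Mir199b. Aligned end to end, with gaps left out, Mir199a-1 matched Mir199a-2 at 63 of 68 aligned bases (92.6%) and Mir199b at 63 of 68 (92.6%). The longer Mir199a-2 and Mir199b matched at 86 of 101 (85.1%), so the percentages cover stretches of unlike length. The 23 bases of miR-199a-5p occur unchanged in both Mir199a hairpins. The matching stretch of Mir199b differs by 1 substitution, C10U, with the miR-199a-5p base first and positions counted from its 5′ end. The 3p arm therefore cannot tell the 3 genes apart, while the 5p arm of Mir199b differs from those of Mir199a-1 and Mir199a-2. Each hairpin lies within the span of a dynamin gene, Mir199a-1 in Dnm2, Mir199a-2 in Dnm3 and Mir199b in Dnm1. Mir199a-2 also lies within Dnm3os and has Mir214 as its nearest miRNA gene. Mir145a lies within the span of the lncRNA gene Carmn, with Mir143 as its nearest miRNA gene.

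miR-145a-5p was lower on the CPZ array. Its RMA value was 11.16 for control RNA and 10.52 for CPZ RNA, a log2 difference of -0.64, or 1.56-fold lower. RMA values are log2 signals after background correction, normalization of the arrays to each other and summary of the probes of a probe set. On the linear scale the signal was 2289 in control and 1471 in CPZ, so 35.8% of the control signal was missing on the CPZ array. The miRNA lay far up in the range of both arrays, at the percentile 98.02 of all probe sets in control and 97.63 in CPZ. Its log2 difference passed the 1.5-fold limit of the study by 0.05, and by size of fold change it ranked 65 of the 69 selected miRNAs. The smallest fold change among the 30 lower miRNAs was 1.51.

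Known from human cells to repress the kinase gene MTOR, miR-199a-3p and miR-199b-3p were higher on the CPZ array. Their shared RMA value was 2.15 for control RNA and 3.58 for CPZ RNA, a log2 difference of 1.43, or 2.69-fold higher. The linear signals behind this difference were 4.44 in control and 11.9 in CPZ, which are 7.48 array units apart, while the linear signal of miR-145a-5p differed by -819 units (CPZ minus control). The median RMA value of the whole array, probe sets of other organisms included, was 0.81 in control and 0.85 in CPZ. The shared value stood at the percentile 81.79 of all probe sets in control and 87.08 in CPZ. Counted over the 6653 distinct pairs of values it stood at the percentile 56.43 in control and 73.58 in CPZ. Detection calls were not used here, so whether miR-199-3p was above background on either array is not known.

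**Figure D1:**
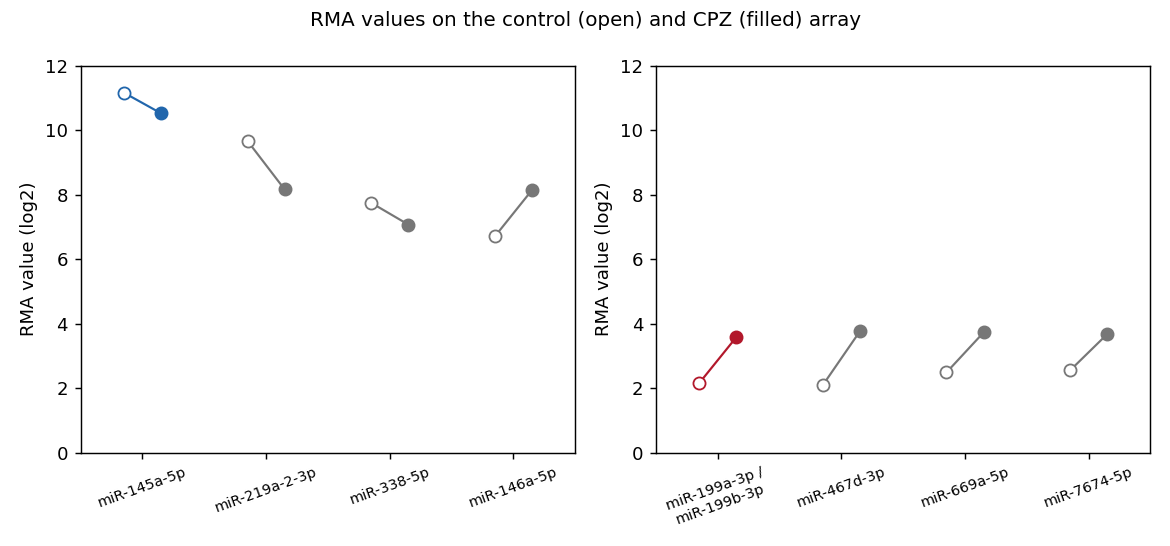
RMA values (log2), with control as open and CPZ as filled circles, for miR-145a-5p (left, blue) and miR-199a-3p and miR-199b-3p (right, red), each beside the 3 selected miRNAs nearest to it in grey. Each circle is 1 array. miR-145a-5p went from 11.16 to 10.52 and miR-199-3p from 2.15 to 3.58.

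On these 2 arrays the direction thus differed between the miRNAs of this group. Of 12 miRNAs listed for the vessel wall, these 3 were located, of which 2 with a single sequence were higher and 1 was lower. The other 9 of the list, among them miR-143-3p, miR-126a-3p, miR-214-3p and both miR-199-5p arms, are not in the study's tables of selected miRNAs, so their values were not identified. The vessel wall label therefore rests on what these miRNAs are known for, and it could not be checked against other miRNAs of that tissue. None of the 4 blood miRNAs listed, such as miR-451a, was located either. Among epithelial miRNAs, the selected ones of the miR-200 family and the miR-183 cluster differed far more strongly between the same arrays. Of 16 arms of the miR-200 family and the miR-183 cluster, 6 were among the selected miRNAs, and all 6 were lower in CPZ, by 31.4-fold to 77.6-fold. Their values ran from 6.65 to 9.99 in control and from 1.59 to 4.37 in CPZ. These 6 were identified only because they passed the 1.5-fold selection on the same arrays, with 1 array per group. This list was chosen after its values were seen, and the other 10 arms were not identified. Not all selected epithelial miRNAs were lower in CPZ. The RMA value of miR-203-3p, which is outside this list, was 4.77 for control RNA and 5.70 for CPZ RNA, a 1.90-fold increase. The part of blood, vessel or epithelial content of the samples in the differences of miR-145a-5p and miR-199-3p was not tested.

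Set against all probe sets, a difference of this size was common for low signals and rare for high ones. Of the 36249 probe sets, 9.71% were lower in CPZ by 1.5-fold or more and 9.07% were higher by as much. Over distinct pairs of values the shares were 19.1% and 15.1%. Of 213 distinct pairs whose mean RMA value reached 10, 2 (0.939%) were at least 1.5-fold lower and 0 (0%) at least 1.5-fold higher. Having been selected for passing 1.5-fold, miR-145a-5p had to be one of these 2, and it had the largest difference of the 213 pairs. The other was an unnamed pair at 11.13 in control and 10.50 in CPZ, held by 7 probe sets and 1.54-fold lower. This pair lay 0.04 from miR-145a-5p (Euclidean distance over the 2 log2 values), and it was also the nearest miss to the match that located miR-145a-5p. What these 7 probe sets read is not given in the files. The study kept mouse probes, and its lower miRNAs, which start at 1.51-fold, do not include this pair. Whether the pair reads the same miRNA as miR-145a-5p was not tested. The third largest difference among the 213 pairs was an unnamed pair 1.35-fold lower, at 11.70 in control and 11.26 in CPZ. A gap thus separated miR-145a-5p and its close neighbour from the remaining bright pairs, but the selection at 1.5-fold fixed part of it.

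**Figure D2:**
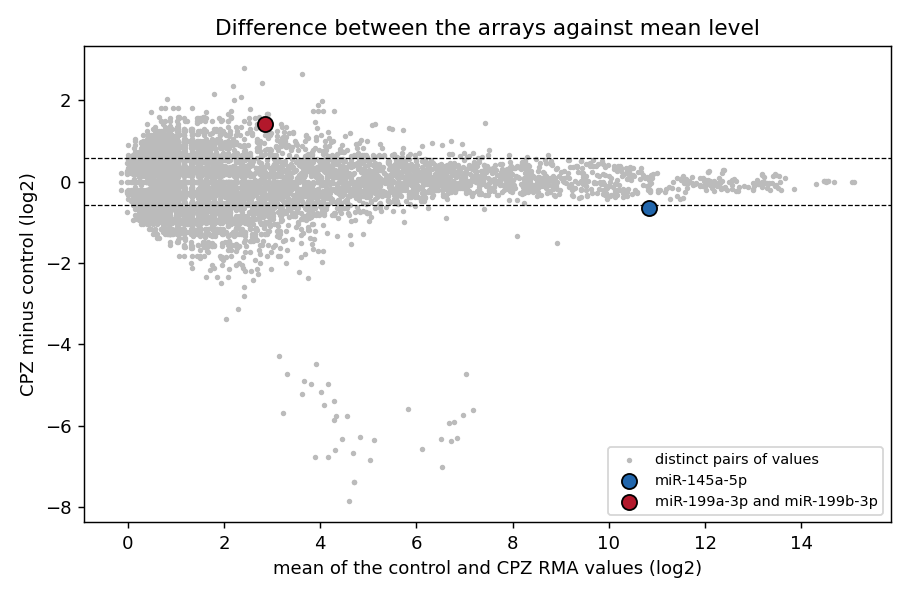
Log2 difference (CPZ minus control) against the mean of the 2 RMA values for every distinct pair of values (grey), with miR-145a-5p in blue and miR-199a-3p and miR-199b-3p in red. Dashed lines mark 1.5-fold. Differences spread widely at low means and narrowly at high means, where miR-145a-5p sits just past the lower line at -0.64.

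For a closer comparison, each of the 2 pairs was set against the other distinct pairs with a mean RMA value within 0.5 of its own. Around miR-145a-5p there were 53 such pairs, of which 1 (1.89%), the close neighbour, was at least 1.5-fold lower. Their log2 differences had quartiles of -0.20 and 0.18, with a median of 0.03, and ranged from -0.63 to 0.35. Around miR-199-3p there were 678 such pairs, of which 92 (13.6%) were at least 1.5-fold higher and 196 (28.9%) at least 1.5-fold lower. Their quartiles were -0.68 and 0.23, with a median of -0.20, and their range was -5.68 to 2.81. Of these 678 pairs, 12 (1.77%) were higher in CPZ by as much as miR-199-3p or more, and 44 (6.49%) were lower by as much. The 678 pairs hold 9 other selected miRNAs, and 1 of the 12, miR-467d-3p, is one of these. The difference of miR-199-3p thus lay within the range of other pairs at its level. That of miR-145a-5p lay just outside the range at its level, past the -0.63 of its close neighbour. These shares describe 2 arrays, include probe sets of other organisms, and are not p-values. The members were selected for passing 1.5-fold on these arrays, so their places among pairs of like level follow in part from that selection.

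**Figure D3:**
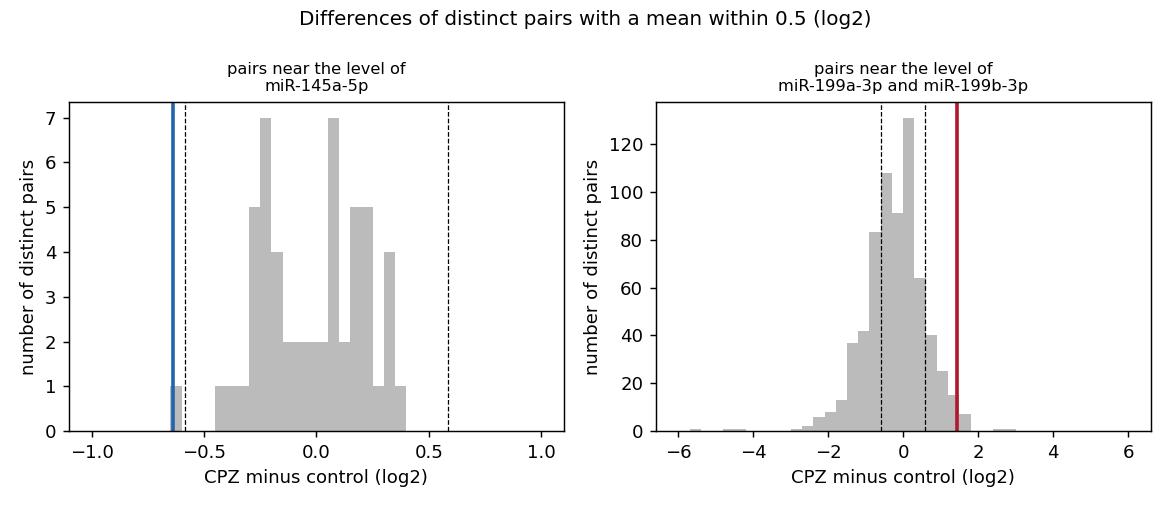
Number of distinct pairs by log2 difference (CPZ minus control) among pairs with a mean RMA value within 0.5 of miR-145a-5p (left, 53 pairs) and of miR-199-3p (right, 678 pairs). Coloured lines mark the miRNAs at -0.64 and 1.43, and dashed lines mark 1.5-fold. The 2 panels have different horizontal scales.

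Of the other 66 selected miRNAs, those nearest to miR-145a-5p over the 2 log2 values were miR-219a-2-3p, miR-338-5p and miR-146a-5p, at distances of 2.80, 4.86 and 5.05. miR-219a-2-3p, of the oligodendrocyte lineage, had a control value of 9.66 and a CPZ value of 8.16, a 2.83-fold decrease. Of the same lineage, miR-338-5p was at 7.74 and 7.07, and its log2 difference of -0.67 was close to the -0.64 of miR-145a-5p. miR-146a-5p, a miRNA induced by NF-κB, went the other way, with a log2 difference of 1.44. The miRNAs nearest to miR-199-3p were miR-467d-3p, miR-669a-5p and miR-7674-5p, at distances of 0.19, 0.37 and 0.41. All of them had control values between 2.09 and 2.55 and CPZ values between 3.67 and 3.76, and the study selected them as higher in CPZ. Whether the difference of miR-145a-5p differs from that of miR-338-5p could not be tested with 1 array per group.

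The weight of a low signal was examined by adding a constant to both linear signals, which shrinks ratios of dim probe sets and hardly touches those of bright ones. With 16 added, miR-145a-5p was 1.55-fold lower and miR-199-3p 1.37-fold higher. The fold change of miR-199-3p fell under 1.5 once 10.5 units were added, which is less than its own CPZ signal of 11.9. For miR-145a-5p 167 units were needed, against signals of 1471 and more.

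**Figure D4:**
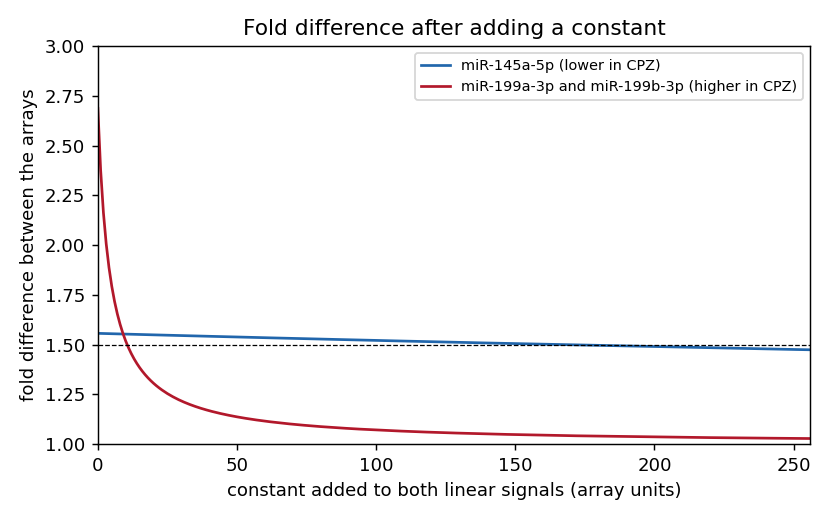
Fold difference between the arrays after a constant (horizontal axis, array units) was added to both linear signals, for miR-145a-5p (blue, lower in CPZ) and miR-199a-3p and miR-199b-3p (red, higher in CPZ). The dashed line marks 1.5-fold. The red curve crosses it at 10.5 units and the blue curve at 167.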

How the data were processed

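The authors labelled and hybridized the RNA, computed RMA values and DABG detection calls in Affymetrix Power Tools, kept mouse probes and used fold change for the comparison. The deposited values, log2 signals after RMA, come from a method that fits both arrays together, with 1 value per probe set and array and no names. The miRNAs named here were located by the fold change and volume printed for them, and those printed values served only to name probe sets. From the deposited values, differences, linear signals, percentiles and shares past 1.5-fold were computed. Identical pairs of values were counted once where stated. The number of arrays limits the precision. No columns of other samples were used (0 found). The members, lists and alternatives were chosen with earlier results of these data known. The named miRNAs are the members and, for each pair of values, the 3 nearest of the other selected miRNAs. miR-203-3p was named in addition, beside the epithelial list. Of 4 listed oligodendrocyte miRNAs 2 were located, both lower. Of 3 listed for choroid plexus and ependyma 1 was located, which was higher, and of 2 listed for neurons none. Alternatives were constants added to the linear signals, centring, lowess (span 0.3), quantile normalization, a 2-fold threshold, other tolerances and other level windows. Sequences and gene spans came from RefSeq tables (GRCm38.p6), and 2 of the 3 miRNAs were matched there. Functions were tested on simulated data. Python 3.11.15, numpy 2.4.6, pandas 2.3.3, statsmodels 0.14.6, Biopython 1.88 and matplotlib 3.10.9 were used.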

Additional observations from a re-analysis of the deposited data

How the results depend on the processing

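miR-145a-5p stayed lower and miR-199-3p higher in CPZ with centring, lowess and quantile normalization. The other alternatives, such as added constants or a 2-fold threshold, could not change a direction. The log2 difference of miR-145a-5p ranged from -0.66 with centring to -0.61 with quantile normalization, where it was 1.52-fold, and at a 2-fold threshold its -0.64 did not pass. That of miR-199-3p was 1.60 after lowess and 1.63 after quantile normalization, but fell under 1.5-fold with 16 added (0.45) and with 64 added (0.15), the latter chosen after seeing the data. The share of pairs of like level past 1.5-fold around miR-145a-5p, 1 pair in each window, was 3.85% within 0.25, 0.787% within 1, 3.10% over probe sets and 0% at 2-fold. Around miR-199-3p it was 5.46% at 2-fold. The share of all probe sets past 1.5-fold in either direction, 18.8%, became 34.2% over distinct pairs, 9.04% at a mean of at least 5 and 1.18% with 16 added. The probe sets located numbered 9 and 15 at tolerances of 0.00005 and 0.001 too. No paired analysis was possible because each group has 1 array, and no array could be left out for the same reason.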

Other observations

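Beside miR-199-3p, 2 other distinct pairs of values had the same log2 difference of 1.43 within 0.00005, at mean RMA values of 1.04 and 2.69. No other distinct pair shared the log2 difference of miR-145a-5p. The nearest miss to the match that located miR-199-3p was an unnamed pair held by 2 probe sets, with values of 2.26 (control) and 3.54 (CPZ), 2.42-fold higher.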
